A study of Oryza sativa Indica Group with 4 samples.

Results

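CIPK kinases (CBL-interacting protein kinases) and their partners, the CBL calcium sensors (calcineurin B-like proteins), were followed in rice seedlings of a T-DNA insertion line and of its parent cultivar. The members are all probe sets whose single annotated gene carries, as symbol or synonym, the name CIPK with a number or CBL with a number from 1 to 10. This gave 42 of the 57381 probe sets on the array, 34 for CIPK genes and 8 for CBL genes. They stand for 31 of the 17905 genes that a single-gene probe set names, 24 CIPK and 7 CBL, and 8 of these genes have more than 1 probe set. The rule used names alone and no measured value.

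Calcium rises in the plant cell when roots or leaves meet salt, drought, cold, low potassium or microbes. CBL proteins bind that calcium through EF-hands, settle on the plasma membrane or the vacuole, and dock onto a short motif of a CIPK, which frees the kinase from its own inhibitory domain. The kinases, also called SnRK3, then phosphorylate ion transporters. The best known chain is the SOS pathway, in which CBL4 and CIPK24 activate the sodium exporter SOS1, and in rice roots CBL1 and CIPK23 activate the potassium channel AKT1.

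The wild type was the Indica Basmati cultivar Basmati 370 (B370). The mutant was a line of the same cultivar labelled as a T-DNA insertional mutant named OsAPC6, after a subunit of the anaphase-promoting complex. Both were sampled as seedlings 15 days after germination under optimal growing conditions, with 2 arrays per genotype and 8 µg of total RNA for each labelling. The labels name 1 insertion line, while pooling of plants, zygosity and any second allele are not given there. OsAPC6 expression was not analysed here. Whole seedlings are a mixture of organs, so fewer cells of a type and less RNA per cell cannot be told apart.

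Signals below are the deposited values on a linear scale, and a log2 difference is mutant minus wild type on log2(signal + 16), with its standard error from limma. "Rose" and "fell" refer to probe sets with a Benjamini-Hochberg adjusted p under 0.05 over the 38172 probe sets tested. Across probe sets the log2 signals correlated at 0.98 within wild type, at 0.977 within the mutant and at 0.963 to 0.964 from one genotype to the other. One rice GAPDH control, read at both ends as a measure of RNA integrity, gave 3′ over 5′ ratios of 9.72 and 9.84 in wild type and 18.4 and 16.2 in the mutant, while the cyclophilin ratios overlapped (2.27 and 2.86 against 2.92 and 2.38). A second rice GAPDH control overlapped too (27.11 and 7.292 against 10.87 and 7.143), as did rice actin (47.19 and 28.25 against 39.52 and 30.19). The rice ef1a ratios went the other way, lower in the mutant (3.109 and 0.9274 against 0.1145 and 0.631). Spiked controls also differed, with a median mutant over wild-type signal ratio of 1.22 for 27 hybridisation probe sets and 0.695 for 36 poly-A probe sets. The green tissue markers rbcS and CAB2R gave some of the brightest signals, up to 43508 for CAB2R in wild type, and the summed signal of 10 green shoot probe sets was 142489 to 143042 in wild type and 147022 to 158343 in the mutant. One rbcS probe set rose (log2 difference 0.26, limma adjusted p = 0.0296). The other probe sets of that gene did not pass, with log2 differences of -0.07, -0.38 and -0.46 (limma adjusted p = 0.688, 0.28 and 0.621), the last of them dim. The green markers CHLH and PORB, also bright, fell (log2 differences -0.48 and -0.34, limma adjusted p = 0.000971 and 0.0095). The summed signal of 4 root probe sets was 1748 to 2004 against 1241 to 1327, most of it the silicon channel gene Lsi1, which fell by 0.74 (limma adjusted p = 0.000798), with Lsi2 at 0.8 to 2.1 in the 4 arrays. The phosphate transporter gene PHT1-2 of the same list, also named PT4, lay above wild type in both mutant arrays (202.3 and 116.9 against 258.9 and 239.6, log2 difference 0.64, limma adjusted p = 0.102). A separate phosphate transporter gene of the list, PT2, was dim and overlapped (21.9 and 49.9 against 13.6 and 59.6, log2 difference -0.08, limma adjusted p = 0.947). The sum of 6 probe sets of dividing cells was 2762 to 3215 against 2079 to 2294, nearly all of it the histone gene H2B.7, which fell by 0.49 (limma adjusted p = 0.00732). In that list the mitotic kinase gene CDKB2-1 read 26.9 and 29.6 against 50 and 72.3, higher in both mutant arrays without passing (log2 difference 0.79, limma adjusted p = 0.214), and the cyclin gene CYCB1-1 overlapped. Of these lists 1 green probe set rose and 2 fell among 10 tested, and 1 fell in each of the others among 3 tested. The rbcS rise and the values of PORB, PHT1-2 and H2B.7 are from probe sets ending in _x_at, which may bind other transcripts. The part of RNA integrity, labelling and organ proportions in the results below was not tested.

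The CIPK genes split into rises and falls, and the CBL genes gave 1 fall. Of the 42 probe sets, 40 passed the filter on low signal, and 11 of these were past the threshold, 4 higher and 7 lower in the mutant. That is 27.5% of the members tested, beside 19.0% of all 38172 probe sets tested. Rises were 4 of 40 beside 8.78% of all probe sets, and falls 17.5% beside 10.2%. These shares, and those set beside 19.0% further below, were not matched for signal level. With a stricter filter on low signal, 11 of 39 members and 7619 of 28629 probe sets were past the threshold. The members' share was then close to that of all probe sets. The transporter and signalling lists below had 63 of 155 under that filter, still a larger share. Falls outnumbered rises over all probe sets tested (3893 and 3351), but rises outnumbered falls with arrays scaled to a common 75th percentile (3653 and 3306), without the first wild-type array (2538 and 2234) and without the second (2462 and 2171). With the common 75th percentile the members had 6 falls and 4 rises by probe set, but 3 of those falls were probe sets of CIPK10. CBL10 was not past the threshold there, so by gene falls did not outnumber rises. Without that scaling, 4 genes rose (CIPK21, CIPK6, CIPK29 and CIPK2) and 5 fell (CIPK5, CIPK10, CIPK14, CIPK1 and CBL10). Of the 30 genes tested, 21 had no probe set past the threshold. The median log2 difference was -0.08 for the members and -0.01 for all probe sets, and the median absolute difference was 0.19 against 0.30. With 1 probe set per gene, the one with the highest mean, 8 of 30 were past the threshold, 3 higher and 5 lower. In 26 of the 40 (65.0%) the genotypes did not overlap, beside 56.7% of all probe sets, so separation of this kind was common among all probe sets tested.

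**Figure D1:**
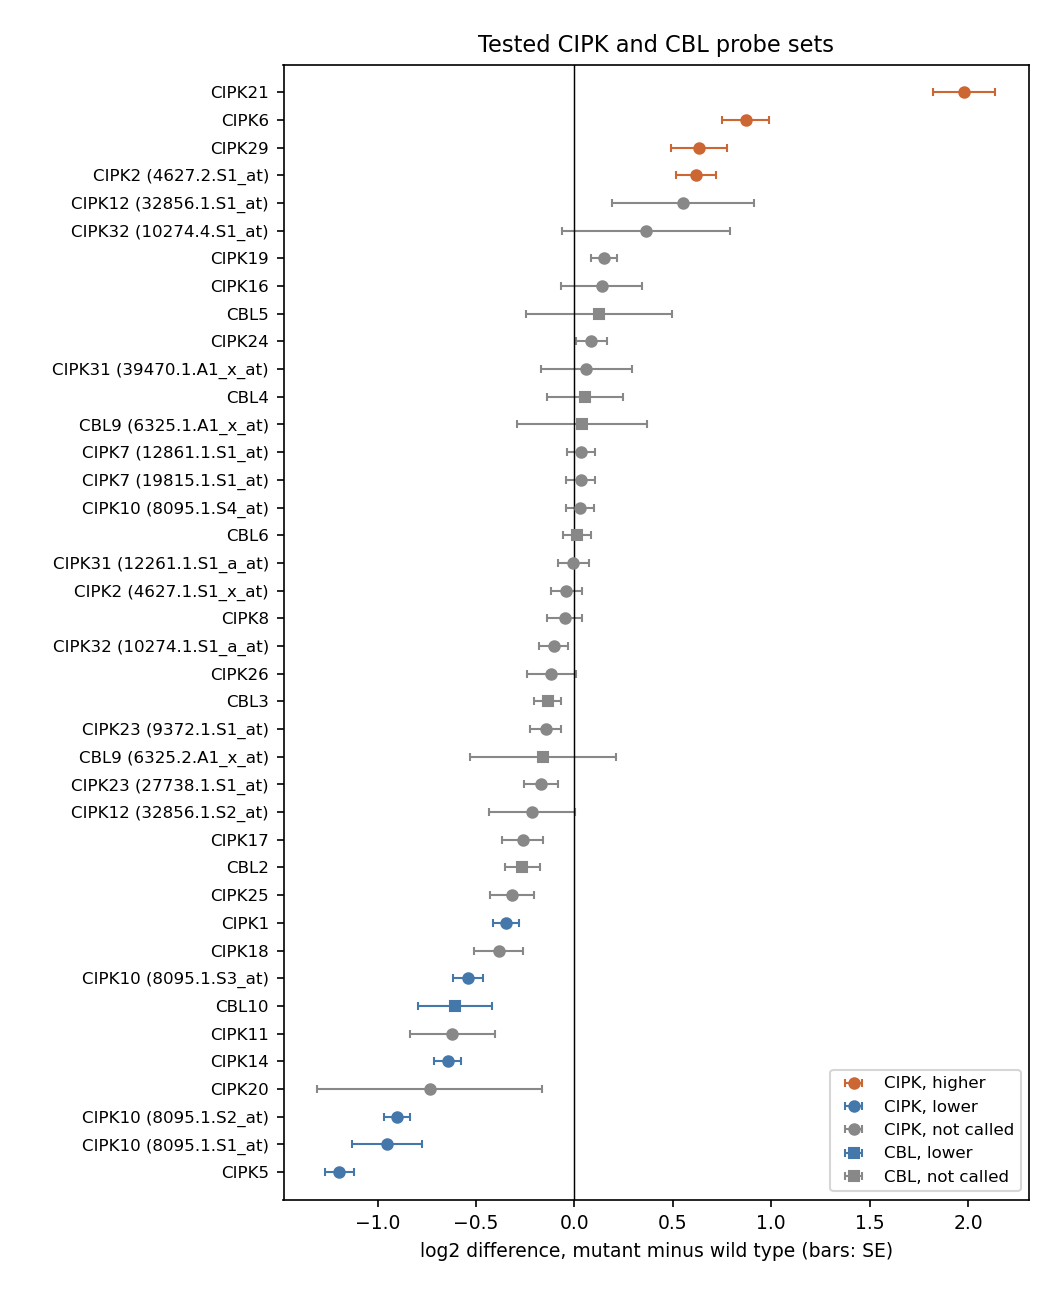
Log2 difference (mutant minus wild type, on log2(signal + 16)) of the 40 CIPK and CBL probe sets tested, ordered by size, with bars for the standard error; circles are CIPK and squares CBL probe sets, orange and blue mark rises and falls past the threshold and grey the rest. CIPK21 at 1.98 and CIPK5 at -1.19 stand at the ends, and the CBL probe sets other than CBL10 lie between -0.27 and 0.12.

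CIPK21 showed the largest difference of any member. In Arabidopsis a kinase of the same number acts in salt and osmotic stress at the vacuole, although equal numbers do not mark counterparts between the species. Its signal stood at 122.1 and 142.0 in wild type and at 577.5 and 556.1 in the mutant. The groups lay far apart, and the arrays within each were close. The log2 difference was 1.98 ± 0.16 (SE, n = 2 arrays per genotype; limma adjusted p = 2.05e-05, 95% interval 1.63 to 2.33). It was the only one of the 40 members tested to rise at least 2-fold in all 4 pairs of arrays, beside 971 of all 38172 probe sets. In either direction the rule was met by 3.35% of all probe sets.

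CIPK6 rose from 447.0 and 397.7 in wild type to 742.9 and 827.3 in the mutant. The lower mutant array was thus well above the higher wild-type array, and the log2 difference was 0.87 ± 0.12 (SE; limma adjusted p = 0.000699). In Arabidopsis a kinase of this number brings the potassium channel AKT2 to the plasma membrane together with CBL4.

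CIPK29 and CIPK2 are neighbours in the gene order of assembly ASM3414082v1, and a probe set of each rose by a like amount. CIPK29 read 273.8 and 286.0 in wild type and 479.2 and 409.6 in the mutant, 0.63 ± 0.14 higher on the log2 scale (SE; limma adjusted p = 0.0118). Its call was lost without the first wild-type array (limma adjusted p = 0.0511) and without the first mutant array (limma adjusted p = 0.0703), in a range of 0.00628 to 0.121 over 13 alternatives. For CIPK2, the probe set ending in S1_at read 634.2 and 576.1 in wild type and 923.4 and 947.8 in the mutant, with no overlap. Its log2 difference was 0.62 ± 0.10 (SE; limma adjusted p = 0.0022).

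**Figure D2:**
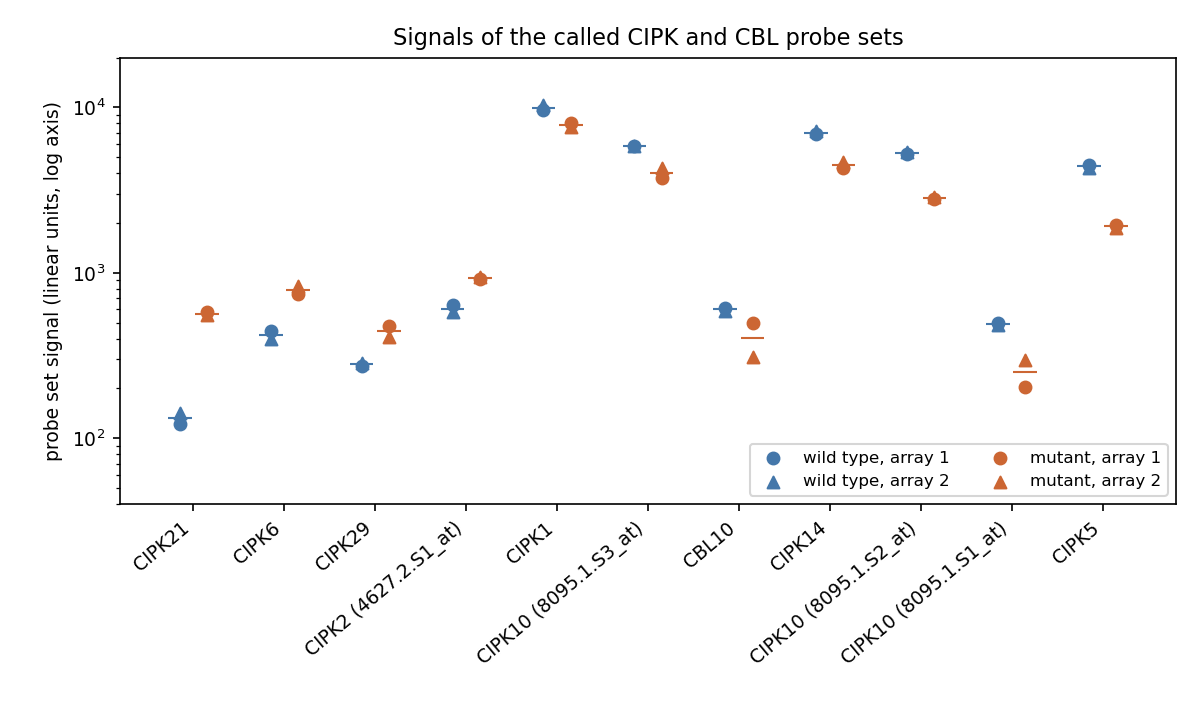
Signal of each called probe set in every array, on a log axis, ordered from the largest rise to the largest fall; blue is wild type, orange the mutant, circles the first and triangles the second array of a genotype, and short lines the group means. CIPK21 goes from 122.1 and 142.0 to 577.5 and 556.1, CIPK5 from 4512 and 4276 to 1954 and 1870.0, and CBL10 has its mutant arrays widest apart, at 494.8 and 307.5.

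CIPK5 showed the largest fall. Its signal was 4511.8 and 4275.5 in wild type and 1953.5 and 1870.0 in the mutant. The groups were separate and the arrays within each differed by less than 0.08 on the log2 scale, while the genotypes differed by -1.19 ± 0.07 (SE, n = 2 arrays per genotype; limma adjusted p = 3.09e-06). It was the only one of the 40 members tested to fall at least 2-fold in all 4 pairs of arrays, beside 306 of all 38172 probe sets. CIPK13, close to CIPK5 in the gene order, has no probe set here, and whether the CIPK5 probes also bind its transcript was not analysed.

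CIPK10 fell by 3 of its 4 probe sets. The probe set ending in S2_at read 5194.0 and 5383.6 in wild type and 2801.2 and 2854.0 in the mutant, a difference of -0.90 ± 0.07 on the log2 scale (SE; limma adjusted p = 1.22e-05). S3_at went from 5860.0 and 5822.3 to 3749.1 and 4283.8, a difference of -0.54 ± 0.08 (SE; limma adjusted p = 0.000887). S1_at went from 499.4 and 483.3 to 203.6 and 296.4, with -0.95 ± 0.18 (SE; limma adjusted p = 0.00421). In each of these the wild-type arrays were close together and both mutant arrays lay below them. S4_at stood apart, with 2393.2 and 2545.8 in wild type and 2514.1 and 2520.2 in the mutant. Its 95% interval, -0.13 to 0.19, did not meet those of the other probe sets, the nearest of which ran from -0.71 to -0.37. Which transcript or which end of it each probe set reads was not analysed here.

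CIPK14, which acts with CIPK15 in the response of rice cells to microbial molecules, read 6856.5 and 7160.9 in wild type and 4318.2 and 4647.6 in the mutant. All mutant values were below all wild-type values, and the log2 difference was -0.64 ± 0.07 (SE; limma adjusted p = 0.000145). CIPK15 is close to CIPK14 in sequence and has no probe set of its own here, so the 2 transcripts may share this signal and the value for CIPK14 is uncertain in that respect. CIPK1 fell less, from 9592.9 and 10350.7 to 8050.2 and 7611.4, by a log2 difference of -0.35 with a standard error of 0.07 (limma adjusted p = 0.00559). Its call was lost without the second wild-type array (limma adjusted p = 0.0852, in a range of 0.000774 to 0.197 over 13 alternatives), while its difference lay between -0.40 and -0.29 in all of them.

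Among the calcium sensors 1 of 8 probe sets was past the threshold, 12.5% beside 19.0% of all probe sets tested. CBL10, whose Arabidopsis namesake works with CIPK24 in salt tolerance of the shoot, read 616.3 and 589.3 in wild type and 494.8 and 307.5 in the mutant. The mutant arrays were below the wild type but far apart from each other, by 0.66 on the log2 scale. The log2 difference was -0.61 ± 0.19 (SE; limma adjusted p = 0.0495), just under the threshold. It stayed past it in 5 of 13 alternatives, and over these its difference ran from -0.94 without the first mutant array to -0.28 without the second (limma adjusted p = 0.00103 and 0.222, with 0.293 the highest of the 13). Without the first wild-type array the adjusted p was 0.139 and without the second 0.102 (limma).

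The other CBL genes differed little or could not be resolved. CBL2 and CBL3, whose Arabidopsis namesakes sit on the vacuolar membrane, were below wild type in both mutant arrays without passing. CBL2 read 1606.5 and 1565.5 against 1400.0 and 1237.4 (log2 difference -0.27, limma adjusted p = 0.0645), and CBL3 3445.0 and 3262.2 against 3021.1 and 3077.8 (-0.14, limma adjusted p = 0.227). CBL2 passed without the first mutant array (limma adjusted p = 0.029, in a range of 0.029 to 0.297 over 13 alternatives). CBL6 had 3634.5 and 3939.4 in wild type and 3825.1 and 3809.1 in the mutant, so the groups overlapped, and its 95% interval was -0.14 to 0.17.

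CBL4, the sensor of the SOS pathway, read 239.2 and 233.0 in wild type and 207.8 and 290.4 in the mutant, with a 95% interval of -0.37 to 0.48. The mutant arrays lay on either side of the wild type. The dim probe sets of CBL5, also listed as CBL2, and of CBL9 had signals between 37.9 and 138.2, and their intervals reached from as low as -0.98 to as high as 0.95. A change of up to about that size could not have been seen for them. CBL1 and CBL7 have no probe set here.

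Genes with several probe sets showed how far a value depends on the probes. For CIPK2, beside the rise given above, the one ending in S1_x_at read 2237.3 and 2018.1 in wild type and 2045.5 and 2085.2 in the mutant. Its 95% interval of -0.22 to 0.14 did not meet that of the rising probe set, 0.39 to 0.84; the ending _x_at marks probes that may bind other transcripts. A further CIPK2 probe set, at 6.5 to 13.2 in all arrays, was too dim to be tested. The probe sets of CIPK12 had opposite signs, 0.55 for S1_at (60.6 and 37.0 against 92.1 and 64.7) and -0.21 for S2_at (143.4 and 153.8 against 124.0 and 127.7), and neither passed (limma adjusted p = 0.351 and 0.581). CIPK12 is known for raising drought tolerance when overexpressed in rice.

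The probe sets of CIPK23, CIPK31, CIPK7, CIPK32 and CBL9 had overlapping intervals within each gene, and none passed. The gene table joins CIPK7 with THA4, a component of the thylakoid protein import machinery, and which of the 2 each CIPK7 probe set reads was not settled here. Their signals were 9466.4 and 9814.4 against 9346.6 and 10441.1 for the brighter, and 2224.3 and 2269.3 against 2236.0 and 2361.1 for the dimmer. Both had overlapping groups and a log2 difference of 0.04 and 0.03.

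**Figure D3:**
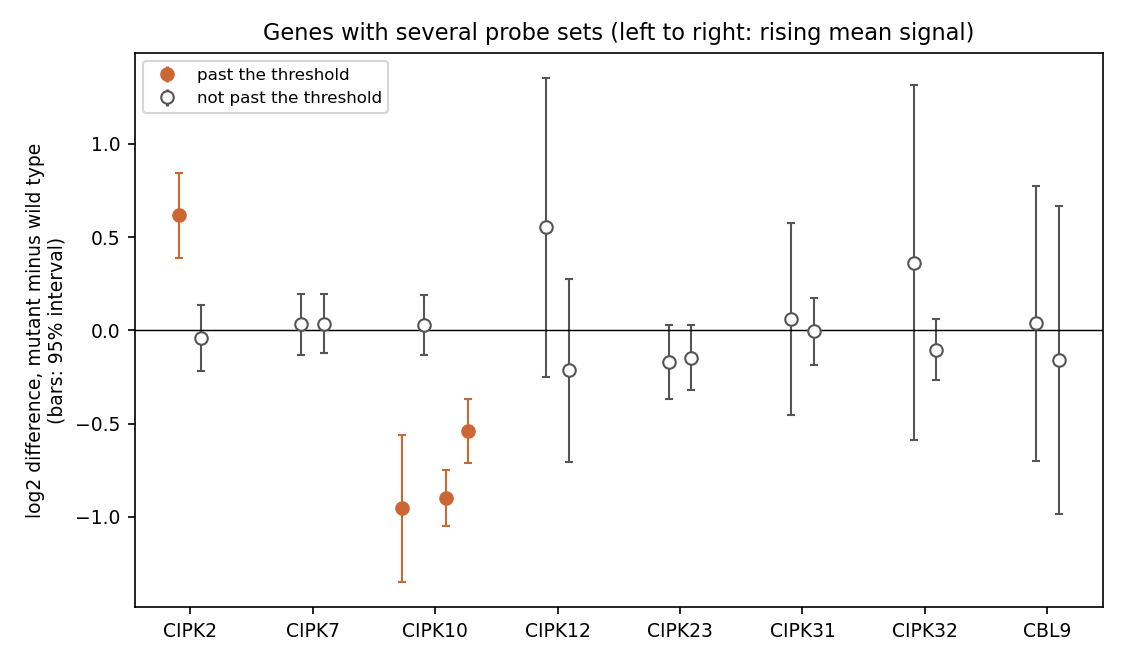
Log2 difference (mutant minus wild type) with its 95% interval for the tested probe sets of the 8 genes that have more than 1, within a gene from the dimmest to the brightest on the left to right; filled orange points are past the threshold and open points are not. CIPK10 has 3 falls and 1 probe set at 0.03, CIPK2 has 1 rise and 1 at -0.04, and the intervals of the other 6 genes overlap within each gene.

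The kinases of the best known ion transport chains were not past the threshold. CIPK24, the kinase of the SOS pathway, read 1467.9 and 1446.8 in wild type and 1518.2 and 1578.8 in the mutant, slightly higher in both mutant arrays, with a 95% interval of -0.09 to 0.26. CIPK23, the kinase of AKT1, read 1647.6 and 1610.3 against 1543.8 and 1355.8 by one probe set and 1945.1 and 1952.8 against 1691.2 and 1830.0 by the other. Both lay below wild type in each mutant array, with log2 differences of -0.17 and -0.15 (limma adjusted p = 0.237 and 0.25). CIPK31, a kinase of abiotic stress responses, had 3055.2 and 3054.9 in wild type and 3255.4 and 2846.7 in the mutant, which overlapped, with an interval of -0.18 to 0.17.

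In all, 29 member probe sets tested did not pass, and 20 of these had an absolute log2 difference under 0.2. Of the 29, 11 were lower and 4 higher in both mutant arrays, and 14 overlapped. The 56.7% of all probe sets tested that did not overlap includes those past the threshold, so it is no measure for these 29. Over the 40 members tested, called or not, 18 were lower and 8 higher without overlap. Of all 38172 probe sets tested, 11376 were lower and 10255 higher in this way. Whether the members lean lower than other probe sets was not tested. The nearest to the threshold among the kinases were CIPK18, from 651.3 and 628.3 to 441.1 and 535.2 (log2 difference -0.39, limma adjusted p = 0.0584), CIPK11, from 184.8 and 190.1 to 106.4 and 126.9 (-0.62, limma adjusted p = 0.0745), and CIPK25, from 819.2 and 877.9 to 733.1 and 625.0 (-0.32, limma adjusted p = 0.0763). All 3 were lower in both mutant arrays. CIPK18 passed without the second mutant array (limma adjusted p = 0.0226) and with the replicate number as a block (limma adjusted p = 0.0443, in a range of 0.0226 to 0.263 over 13 alternatives) and CIPK25 without the first (0.0345, limma, in a range of 0.0345 to 0.309).

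The remaining kinases, CIPK8, CIPK16, CIPK17, CIPK19 and CIPK26, had log2 differences from -0.26 for CIPK17 to 0.15 for CIPK19. CIPK19 was higher in both mutant arrays (3454.3 and 3537.5 against 3810.2 and 3953.1) and CIPK17 lower in both (729.5 and 742.9 against 580.8 and 641.9). At the low end, CIPK20 read 32.1 and 17.0 in wild type and 2.9 and 14.3 in the mutant. It was tested, but at this level the difference of -0.74 had a 95% interval of -2.01 to 0.54. CIPK30 read 1.0 and 20.6 in wild type and 7.2 and 5.4 in the mutant and was not tested. The 6 CIPK genes without a probe set here are CIPK3, CIPK9, CIPK13, CIPK15, CIPK27 and CIPK33.

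The members' arrays agreed closely within a genotype, but the comparison with all probe sets was not matched for signal level. Brighter probe sets are expected to vary less. The median absolute log2 difference between the wild-type arrays was 0.0778 for the 40 members and 0.183 for all probe sets tested, and between the mutant arrays 0.146 against 0.203. The mutant pair was the wider in 24 of the 40, and in 20364 of all 38172 probe sets tested. Of the 11 called probe sets, CBL10 (0.66) and the CIPK10 probe set S1_at (0.51) had mutant arrays more than 0.5 apart.

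Transporters that CBL-CIPK pairs are known to act on, and their relatives, changed in both directions. Of 17 probe sets for 13 genes, 6 rose and 3 fell (52.9% called, beside 19.0% of all probe sets), with a median log2 difference of 0.16 against -0.01. The high-affinity potassium transporter genes HAK5 and HAK1 had the largest rises. HAK5 went from 300.7 and 265.3 to 1205.6 and 1299.7 by one probe set (log2 difference 2.09 ± 0.12 SE, limma adjusted p = 1.81e-06), while its other probe set, at 15608.3 and 18009.1 against 19125.4 and 16256.2, overlapped. HAK1 went from 1002.9 and 954.6 to 3148.4 and 3300.3 by one probe set (1.70 ± 0.08 SE, limma adjusted p = 5.26e-07). Its other probe set rose less, from 388.7 and 448.9 to 703.5 and 806.3 (0.83 ± 0.13 SE, limma adjusted p = 0.00133). The larger HAK1 value and the AKT1 value that follows are from probe sets ending in _x_at, which may bind other transcripts. AKT1, the channel that CIPK23 activates, read 1665.0 and 1656.8 in wild type and 1326.8 and 1186.3 in the mutant and fell by 0.40 (limma adjusted p = 0.00956). Of the vacuolar calcium exchangers CAX1a fell by 0.60 and CAX1b by 0.49 (limma adjusted p = 0.00498 and 0.009), and CAX2 and CAX3 rose by 0.70 and 0.43 (limma adjusted p = 0.00859 and 0.0194).

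Other calcium sensors, the calmodulins, calmodulin-like CML proteins and calcium-dependent CPK kinases, had 16 rises and 7 falls among 50 probe sets tested. That is 46.0% called, beside 19.0% of all probe sets, with a median log2 difference of 0.22 against -0.01. CML14 went from 69.4 and 69.2 to 366.8 and 396.1 and CML4 from 4144.6 and 4229.0 to 7542.7 and 9252.2, rises of 2.22 and 0.99 (limma adjusted p = 4.29e-05 and 5.19e-05). CPK12 and CPK7 fell by 1.26 and 0.44 (limma adjusted p = 0.000581 and 0.00359). Among calcium channels and pumps 2 of 8 fell and 0 rose (25.0% called, beside 19.0%): the calcium pump genes ACA10 and ACA5 fell by 0.62 and 0.52 (limma adjusted p = 0.0128 and 0.00127). The ACA10 value is from one probe set, and a brighter one read 1858.5 and 1852.3 against 2039.0 and 1995.4, slightly higher in both mutant arrays without passing (log2 difference 0.12, limma adjusted p = 0.326).

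**Figure D4:**
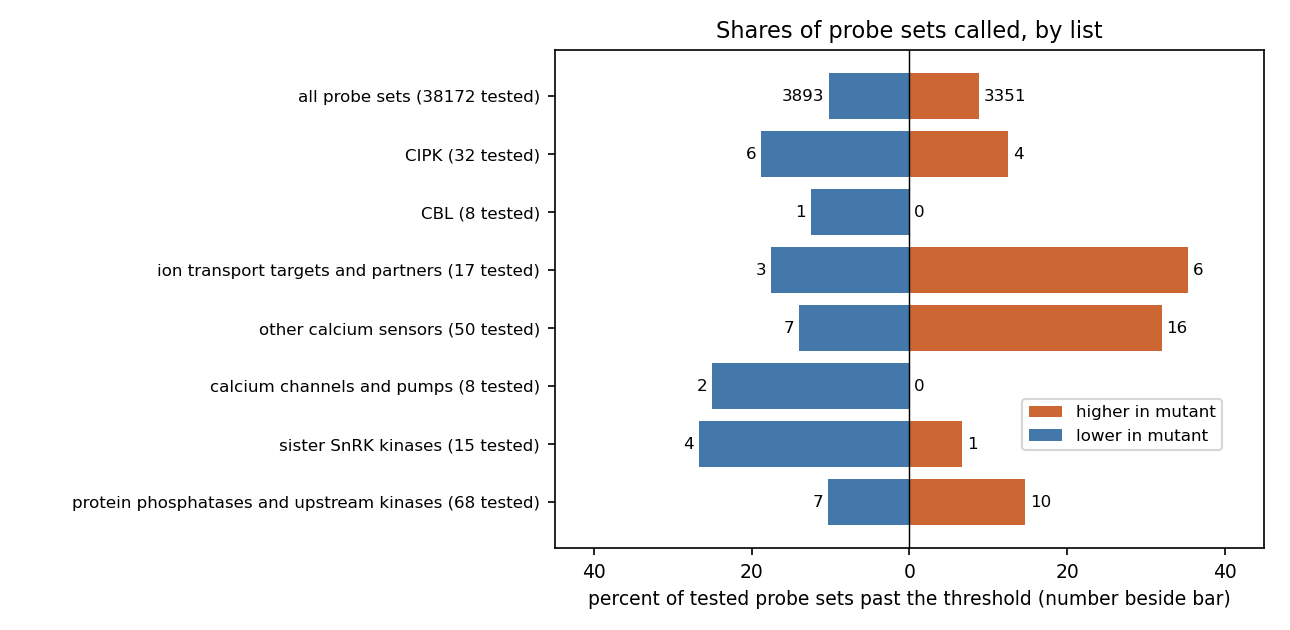
Share of tested probe sets past the threshold, to the right for rises and to the left for falls, in percent, with the number of probe sets beside each bar. All probe sets stand at 8.78% higher and 10.2% lower, CIPK at 12.5% and 18.8%, and CBL at 0% and 12.5%.

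The sister kinases of the SnRK group, which include the abscisic acid kinases SAPK and the energy sensor SnRK1, had 1 rise and 4 falls among 15 probe sets (33.3% called, beside 19.0% of all), with a median of -0.10. SnRK1A, which CIPK15 acts upon when rice seedlings lack oxygen, went from 333.9 and 327.9 to 214.8 and 174.8 by one probe set and fell by 0.73 (limma adjusted p = 0.014). Its other, brighter probe set read 3378.6 and 3445.8 against 3617.7 and 3670.8 and did not pass (limma adjusted p = 0.395). SAPK4 fell by 0.64 and SAPK2 rose by 0.30 (limma adjusted p = 0.000304 and 0.0238). A list of PP2C protein phosphatases, some of which bind CIPKs, included 2 probe sets for PP2C genes also named ABIL. It had 10 rises and 7 falls among 68 probe sets (25.0% called, beside 19.0%), with a median of 0.03. PP2C16 and PP2C45 rose by 1.30 and 1.05, and PP2C09 and PP2C66 fell by 0.93 and 0.76 (limma adjusted p = 0.0145, 0.00196, 5.19e-05 and 0.0148). Other probe sets of these genes did not pass: a brighter one of PP2C45 had a log2 difference of 0.02 (limma adjusted p = 0.907), and PP2C66 had a brighter one at 0.03 and a dimmer one at 0.57 (limma adjusted p = 0.875 and 0.432). rbohB, a respiratory burst oxidase, was the 1 probe set of its list and fell by 0.23 (limma adjusted p = 0.034).

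All these calls come from 1 set of 4 arrays and depend on limma's intensity trend, which lets brighter probe sets have a smaller expected variance. Without it limma called 0 of the 40 members, with 11 at an unadjusted p under 0.05. In an exact permutation test 2 arrays against 2 cannot go below a two-sided p of 0.333. The labels do not say whether replicates came from separate plants or days, so the p-values measure the spread between these samples only.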

How the data were processed

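Biotin-labelled RNA was read on Affymetrix rice arrays, per the labels' protocols. The deposited values are linear intensity per probe set, for which the submitters' processing notes name GCOS 1.2 without a signal algorithm. The mean after trimming 2% at each end was 500.1 in every array, so arrays had been scaled to a common level. The 4 arrays were grouped by their titles. After log2(signal + 16) in R 4.3.3, the 123 control probe sets and the third with the lowest mean log2 signal (19086) were left out, leaving 38172. Array medians lay within 0.06, so no further normalization was applied. Genotypes were compared with limma 3.58.1 (lmFit, eBayes with intensity trend, Benjamini-Hochberg adjusted p under 0.05), tested on simulated data first. The added 16 understates differences of dim probe sets. The number of arrays limits the precision.

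Genes were named from the platform annotation, matched by gene number to the RefSeq table of assembly ASM3414082v1; 22436 probe sets had 1 gene, all matched, and 95 with several were not named. Members and partner lists were chosen by name, with earlier results of these data known. Every member may be named, and called ones are given with all arrays. Of each partner list the 2 called genes with the largest rise and the 2 with the largest fall are given, plus AKT1, AMT1-1, CAX2 and CAX3. These added genes, and array values of uncalled members of middle brightness, were included after their values were seen. The replicate number did not pair arrays (r = 3.1e-05 between deviations of same-numbered arrays). No sequences are printed.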

Additional observations from a re-analysis of the deposited data

How the results depend on the processing

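No called member changed sign in any of 13 alternatives, and 8 of the 11 stayed past the threshold in all of these but the one without the intensity trend; the exceptions were CBL10, CIPK29 and CIPK1. Without the trend limma called 0 members, 0 partner probe sets and 0 of all probe sets, against 11, 57 and 7244 (11, 47 and 9039 at an unadjusted p under 0.05). Requiring a 2-fold change in every one of the 4 pairs in place of limma's test took 2, 4 and 1277. Omitting single arrays, with the remaining one taken to vary like the other genotype, gave 9 to 12 members, 35 to 58 partner probe sets and 4633 to 6536 of all probe sets; partner counts were lowest when a wild-type array was left out, at 35 (replicate 1) and 36 (replicate 2), and the count of all probe sets was then 4772 and 4633. The median member difference lay between -0.14 and -0.04. With the replicate block 12 members were called, CIPK18 being added, and 57 partner and 7661 of all probe sets; the arrays share only a number. Of the uncalled members 13 changed sign at least once. Dim probe sets such as CBL5, CBL9 and CIPK20 have intervals too wide for a moderate change to be seen.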

Other observations

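Further neighbouring pairs among the CIPK genes of assembly ASM3414082v1 could not be compared as CIPK29 and CIPK2 were: CIPK30, next to CIPK12, was too dim to be tested, and CIPK27, next to CIPK16, has no probe set here. CIPK16 read 323.6 and 271.8 in wild type and 262.3 and 409.7 in the mutant, with overlapping groups (log2 difference 0.14, limma adjusted p = 0.719). The kinases CIPK8 and CIPK26 also overlapped, CIPK8 with 1319.2 and 1227.8 against 1189.5 and 1269.4 and CIPK26 with 489.9 and 540.7 against 505.3 and 443.4.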
